A study of Homo sapiens with 8 samples.

Results

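The genes described here are 52 interferon-stimulated effectors and regulators. They were taken by symbol, by a rule that uses no measured value to choose among genes. The list itself was chosen with earlier results of these data known. All 52 were found among the 63816 entries of an RNA-Seq expression table. Where a symbol had several entries, the one with the highest mean over the 8 samples was used. The question asked of them is how the interferon-stimulated genes stand in cells that were made to express Siglec-XII.

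Samples came from a human line labelled Caco-2, a colorectal adenocarcinoma line used as a model of intestinal epithelium. The study chose it because it lacks Siglec-XII, a sialic acid-binding family receptor that no longer binds its ligand in humans. Both groups were transfected with a linearized pcDNA3.1 plasmid, in which a viral promoter drives the insert, and were selected with G418. The 4 Empty_Vector samples carried no insert, and the 4 Siglec12 samples carried full-length SIGLEC12. They are called empty vector and Siglec-XII samples below, and no interferon or virus was named for either group. The sources used here call the cells stable clones and speak of 3 cultures per condition or of technical replicate libraries, while 4 samples per group are listed. The p-values therefore measure the spread between these samples, which may be technical. The 2 groups were transfected and selected apart, so what Siglec-XII does and how the 2 cell populations differ cannot be told apart.

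Interferons are secreted by cells that sense viral nucleic acid. They bind receptors whose JAK kinases activate transcription factors such as STAT2, which joins IRF9 and binds interferon-stimulated response elements in the promoters of target genes. The products block viral entry, translation and replication, and some of them feed back on the pathway. Many of these genes keep a basal level in epithelial cells without added interferon, and intestinal epithelium is known for responding to type III interferons.

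Values are TPM (transcripts per 1000000), which are scaled for transcript length, so levels may be compared between genes. Differences and tests are on the log2(TPM + 1) scale, as Siglec-XII minus empty vector, which understates the change of genes near or under 1 TPM. SIGLEC12 itself stood at 0.11 in the empty vector group and at 10.7 in the Siglec-XII group on this scale (p = 0.0286 by a two-sided exact permutation test, which can give no smaller value here). The number of entries at 1 TPM or more ran from 15513 to 15934 per sample, mitochondrially encoded genes took 6.67% to 11.2% of TPM, and the read depth of a sample is not known from these values. Of 16 intestinal markers, 14 had a mean under 1 TPM and 5 (KRT20, FABP1, SI, TFF3 and PHGR1) were listed at 0 in every sample, with CDX1 and CDX2 as the exceptions. Summed intestinal marker TPM was 163 to 186 with the empty vector and 190 to 216 with Siglec-XII. All 5 general epithelial markers were high, and 13 of 17 trophoblast markers had a mean of 1 TPM or more. The 4 under it were CGA, CGB3, CGB5 and CGB8, with means of 0.785, 0.0776, 0.0287 and 0.109 TPM. The 17 trophoblast markers summed to 2531 to 2567 TPM with the empty vector and 2454 to 2468 TPM with Siglec-XII. The cells are therefore called by their label only. Leukocyte markers, of which 7 of 9 had a mean under 1 TPM, summed to 2.79 to 4.73 TPM with the empty vector and 3.12 to 5.47 with Siglec-XII. Fibroblast markers, led by COL1A1, summed to 70.7 to 86.8 and 83.2 to 89.1 TPM, with THY1 listed at 0 throughout. General epithelial markers summed to 8257 to 9230 and 9840 to 10217 TPM. The part of these differences in the results on the interferon-stimulated genes was not tested.

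IFIT1, IFIT2 and IFIT3 belong to a family of cytosolic proteins that acts against foreign or unprocessed RNA and its translation. They rose with Siglec-XII, to 10.8, 10.9 and 11.98 times their mean TPM. They were the only members past an adjusted p of 0.05 by limma, and 0 members fell. Of the 52 members, 35 reached 1 TPM in at least 4 samples and were tested, and 17 were not. Among all 15590 entries tested, 0.34% were called higher and 0.308% lower. The 3 called genes passed the filter through the Siglec-XII samples alone: none of the 4 empty vector samples reached 1 TPM for any of them, so their passing already required a difference.

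At an unadjusted p of 0.05 or less, 14 of the 35 tested members (40.0%) were higher and 0 lower, where 13.9% of all entries tested were higher and 2.61% lower. Without the 3 IFIT genes, 11 of 32 (34.4%) were higher. In 11 of the 35 (31.4%) every Siglec-XII sample lay above every empty vector sample, against 9.17% of all entries, and in 0 the reverse held, against 1.68%. Without the 3 IFIT genes this was 8 of 32 (25%). The median log2 difference was 0.20 over the tested members and 0.18 without the IFIT genes, against 0.07 over all entries. Of the 35, 31 were above 0 and 4 below, where 68.1% of entries were above 0. Over the full 52, with no filter, 43 had a mean difference above 0 and 9 below, where 58.6% of all entries above 0 in any sample were higher. In that fit 3 of the 52, the same IFIT genes, were higher at an adjusted p under 0.05, against 0.0531% of entries. At the unadjusted threshold 20 of the 52 were higher, against 6.99% of entries, and 0 were lower, against 1.94%. The groups did not overlap for 16 of the 52, all of them higher with Siglec-XII, against 4.34% of entries. Entries at 0 in samples of both groups cannot separate, which lowers this share. Beyond the 3 IFIT genes, then, single members did not pass the adjusted threshold, and they are given below by their values. The shares above describe a list chosen with earlier results of these data known, and are no independent test of it.

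**Figure D1:**
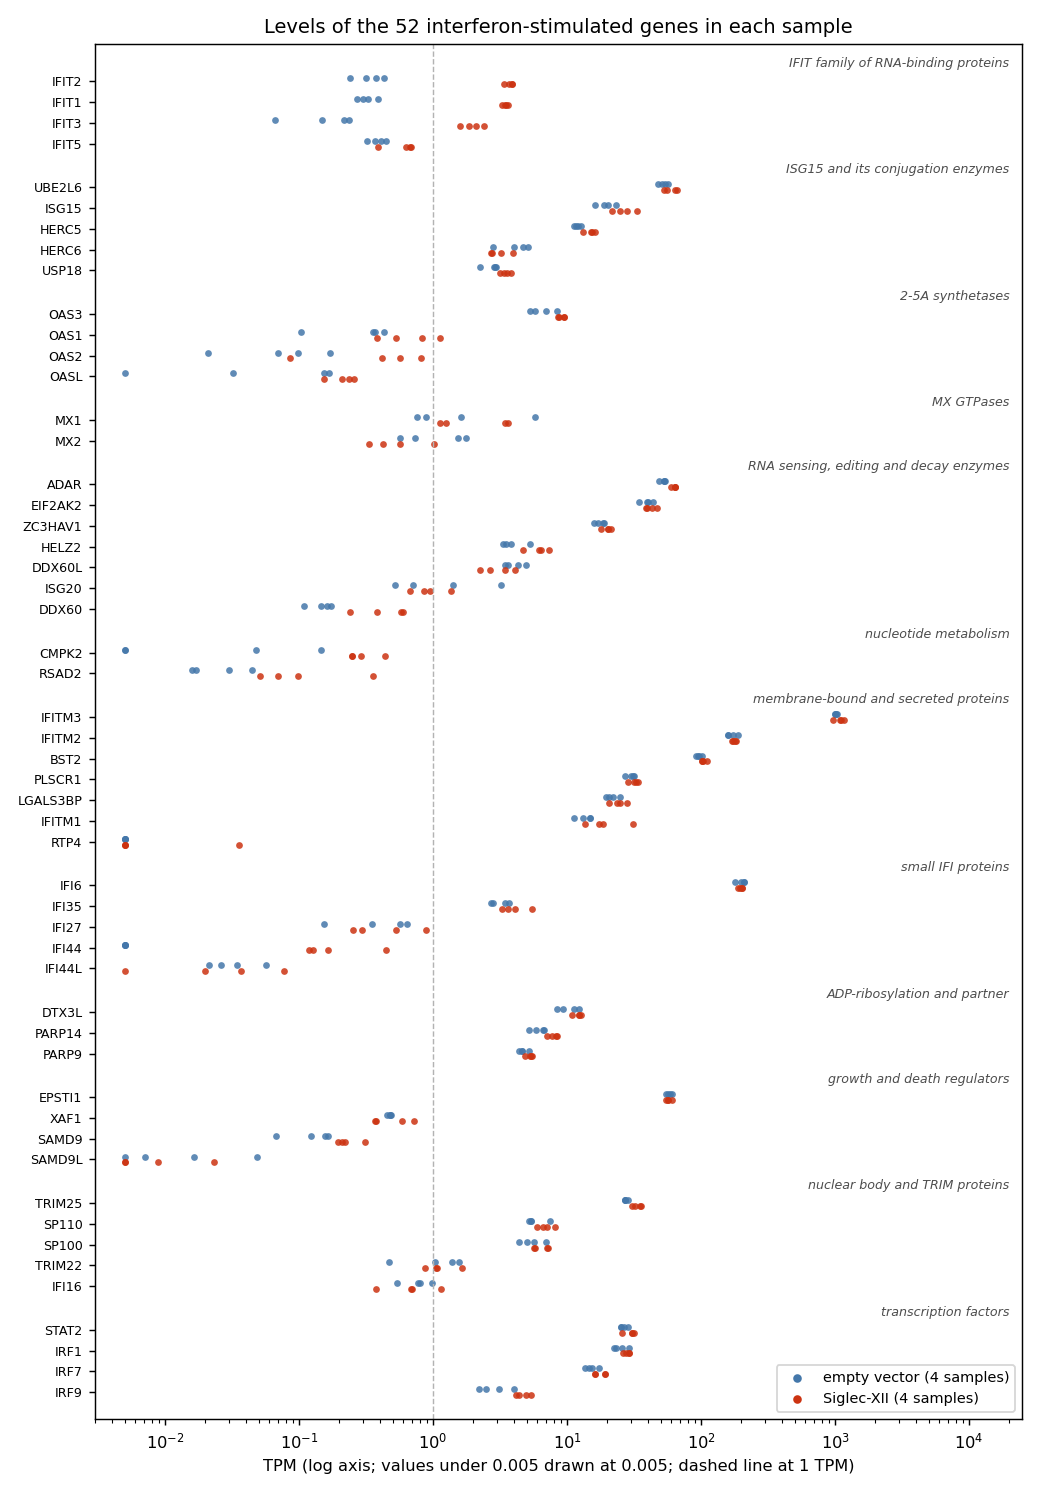
TPM of each of the 52 genes in the 4 empty vector (blue) and 4 Siglec-XII (red) samples, 1 point per sample, on a log axis, grouped by role and ordered by level; values under 0.005 TPM are drawn at 0.005 and the dashed line marks 1 TPM. Levels run from 0 for RTP4 in most samples to 1157 TPM for IFITM3, and the points of IFIT1, IFIT2 and IFIT3 stand clear of each other across the 1 TPM line.

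The IFIT genes lie side by side on the plus strand of chromosome 10. In GRCh37, IFIT2 (ENSG00000119922) spans 91043451 to 91069028, IFIT3 (ENSG00000119917) 91087064 to 91137230, IFIT1 (ENSG00000185745) 91152303 to 91166244 and IFIT5 (ENSG00000152778) 91174325 to 91181362. IFIT1 was at 0.325, 0.268, 0.301 and 0.386 TPM in empty vector replicates 1 to 4 and at 3.59, 3.44, 3.49 and 3.29 TPM in the Siglec-XII replicates. Its samples were tightly grouped within each condition, with means of 0.320 ± 0.0496 and 3.45 ± 0.127 TPM (SD, n = 4). The log2 difference was 1.75 with a standard error of 0.11 (limma adjusted p = 0.000124).

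IFIT2 had 0.432, 0.373, 0.239 and 0.315 TPM with the empty vector and 3.91, 3.87, 3.70 and 3.40 TPM with Siglec-XII. Every Siglec-XII sample was again far above every empty vector sample, and the log2 difference was 1.82 with a standard error of 0.12 (limma adjusted p = 0.000124). IFIT3, which binds IFIT1 and stabilizes it, had 0.217, 0.235, 0.147 and 0.066 TPM with the empty vector and 2.41, 2.10, 1.85 and 1.601 TPM with Siglec-XII. Its log2 difference was 1.35 with a standard error of 0.14 (limma adjusted p = 0.00237). With a pseudocount of 0.1 TPM in place of 1, the 3 log2 differences became 3.09 for IFIT1, 3.14 for IFIT2 and 3.01 for IFIT3.

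IFIT5, the family member next to IFIT1, was at 0.412, 0.320, 0.445 and 0.365 TPM with the empty vector and at 0.678, 0.681, 0.386 and 0.625 TPM with Siglec-XII. Siglec-XII replicate 3 lay within the range of the empty vector samples, and the ratio of means was 1.54. No IFIT5 sample reached 1 TPM, so the gene was not tested. In the fit with no filter its unadjusted p was 0.0888. The difference between IFIT5 and its neighbors was not tested. LIPA, a lysosomal lipase gene on the opposite strand that overlaps IFIT1, IFIT2 and IFIT3, had 12.8 TPM in both groups and a log2 difference of 0.01 (limma adjusted p = 0.980).

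**Figure D2:**
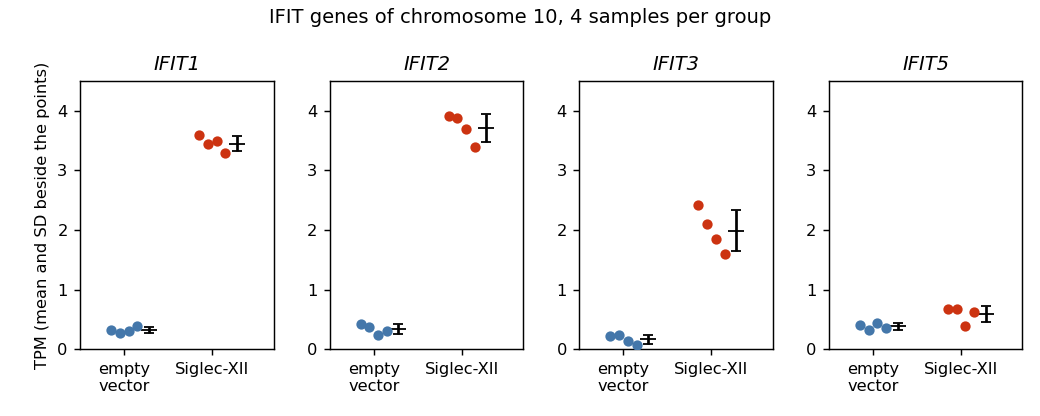
TPM of the 4 IFIT genes in each sample, 4 samples per group, with the mean and SD drawn beside the points. IFIT1, IFIT2 and IFIT3 lie under 0.5 TPM in all empty vector samples and above 1.5 TPM in all Siglec-XII samples, while the groups overlap for IFIT5.

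Promoter sequences were read from RefSeq for the called IFIT genes listed there and for IFIT5 as the relative that was not called. They show the response element that STAT2 and IRF9 bind. Of the 52 members, 44 had a promoter in the RefSeq table of GRCh38.p14, and IFIT2, MX2, OAS2, OASL, IFITM2, USP18, TRIM22 and IRF7 did not. Each line gives the 160 bases before the transcription start, 5′ to 3′ on the plus strand, with capitals for the response element core, a pair of GAAA copies with any 2 bases between them. In all of these promoters it appears as its reverse complement, a pair of TTTC copies with 2 bases between.
IFIT1, chr10:89392463-89392622: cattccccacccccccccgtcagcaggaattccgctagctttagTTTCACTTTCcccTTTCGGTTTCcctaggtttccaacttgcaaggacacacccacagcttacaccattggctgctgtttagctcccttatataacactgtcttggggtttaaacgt
IFIT3, first listed start, chr10:89327837-89327996: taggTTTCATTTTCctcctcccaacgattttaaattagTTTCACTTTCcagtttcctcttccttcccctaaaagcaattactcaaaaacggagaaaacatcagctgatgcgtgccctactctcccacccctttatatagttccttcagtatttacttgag
IFIT3, second listed start, chr10:89332369-89332528: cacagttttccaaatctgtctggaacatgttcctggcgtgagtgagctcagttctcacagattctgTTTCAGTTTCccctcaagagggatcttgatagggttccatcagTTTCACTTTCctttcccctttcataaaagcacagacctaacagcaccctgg
IFIT5, chr10:89414408-89414567: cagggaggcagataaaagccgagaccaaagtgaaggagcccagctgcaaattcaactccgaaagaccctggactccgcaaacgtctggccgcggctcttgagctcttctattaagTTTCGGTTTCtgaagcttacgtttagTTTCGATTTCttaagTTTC
Counted from the start, the IFIT1 matches begin at -116 and -103, those of the first IFIT3 start at -156 and -122, and those of the second at -94 and -51. IFIT5 has 3 matches, at -45, -19 and -4, the last of which runs past the start and is shown by its first 4 bases. A match to these letters is a description of the sequence and does not show that a factor was bound.

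Both motifs were searched on both strands from 250 bases before to 50 after each listed start, and a match of one could overlap a match of the other. The response element core was found in 27 of the 44 listed members (61.4%), against 1195 of 27305 genes (4.38%). More than 1 match in a single promoter was found in 15 of the 44 (34.1%), against 0.311% of all genes. The gamma-activated site TTCNNNGAA, an element of genes induced by interferon gamma, was found in 14 of the 44 (31.8%) and in 9.38% of all genes. Of the 27 members with the response element core, 22 had a mean difference above 0, the groups did not overlap in 10, and the median log2 difference was 0.15. Of the 17 without it, 14 were above 0, the groups did not overlap in 4, and the median was 0.20. Over all entries with no filter, 58.6% were above 0 and 4.34% were higher without overlap, the latter lowered by entries at 0 in samples of both groups. IFIT1, IFIT3 and IFIT5 share the element with members such as IFI6 and EPSTI1, whose levels were nearly equal in both groups. They also share it with OAS3, PARP14 and HERC5, whose groups did not overlap, higher with Siglec-XII. The part of the element in these differences was not tested.

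**Figure D3:**
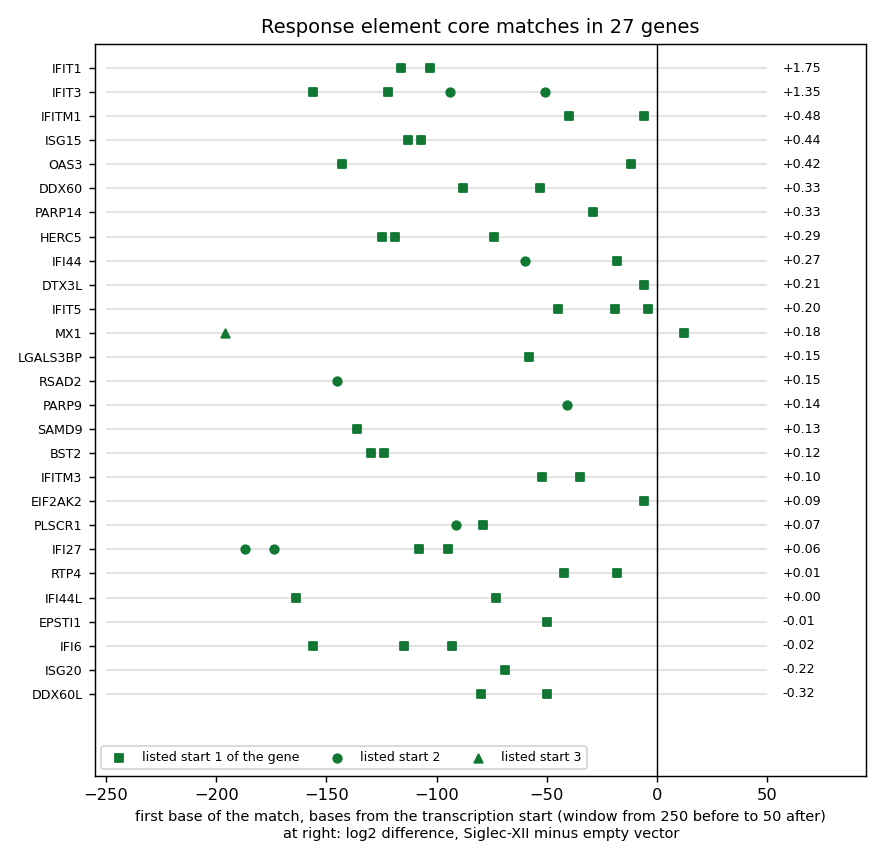
Position of each response element core match in the 27 genes that have one, as bases from the transcription start to the first base of the match, with the log2 difference (Siglec-XII minus empty vector) at the right and marker shapes for the listed starts of a gene. Genes are ordered by their difference, from 1.75 for IFIT1 to -0.32 for DDX60L, and several matches in 1 promoter occur at both ends of the order.

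ISG15 and its enzymes attach a ubiquitin-like tag to newly made and viral proteins. Of these 5 genes, 0 passed the adjusted threshold and 3 were higher at an unadjusted p of 0.05 or less, against 13.9% of all entries tested. In mean difference 4 of the 5 were above 0, close to the 68.1% of all entries tested. ISG15, the tag itself, had 16.0, 18.8, 23.0 and 20.3 TPM with the empty vector and 21.7, 27.8, 24.9 and 33.4 TPM with Siglec-XII. The groups overlapped through Siglec-XII replicate 1, and the log2 difference was 0.44 with a standard error of 0.14 (limma adjusted p = 0.180). HERC5, the main ligase for ISG15, had 12.1, 12.6, 11.2 and 11.6 TPM against 15.3, 13.0, 16.1 and 15.01 TPM. These groups did not overlap, and the log2 difference was 0.29 (limma adjusted p = 0.130). USP18, which removes the tag and restrains the interferon receptor, had 2.25, 2.85, 2.92 and 2.95 TPM against 3.83, 3.17, 3.36 and 3.54 TPM, also without overlap (log2 difference 0.26, limma adjusted p = 0.282). UBE2L6, the conjugating enzyme and the most abundant of the group, had 48.1 to 56.8 TPM with the empty vector and 53.1 to 65.9 TPM with Siglec-XII (log2 difference 0.18, limma adjusted p = 0.312). HERC6, a relative of HERC5 that lies beside it on chromosome 4, differed in the other direction by -0.30 (limma adjusted p = 0.395), with 2.81 to 5.09 TPM and 2.70 to 3.93 TPM.

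The 2-5A synthetases make the oligoadenylates that switch on RNase L. OAS3, the only 1 of the 4 that was tested, had 6.98, 8.37, 5.27 and 5.77 TPM with the empty vector and 9.45, 9.42, 8.57 and 8.71 TPM with Siglec-XII. The groups did not overlap, though empty vector replicate 2 came close, and the log2 difference was 0.42 with a standard error of 0.13 (limma adjusted p = 0.161). OAS1, OAS2 and OASL were lower, with mean TPM of 0.315, 0.0894 and 0.0879 with the empty vector and 0.716, 0.470 and 0.214 with Siglec-XII. Their groups overlapped, and OASL was listed at 0 in empty vector replicate 2.

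Of the MX GTPases, which trap viral nucleocapsids, MX1 varied within the groups more than between them. MX1 had 1.62, 5.74, 0.760 and 0.892 TPM with the empty vector and 1.25, 3.61, 3.45 and 1.12 TPM with Siglec-XII. Its highest and its lowest values were both empty vector samples, and the interval of the log2 difference ran from -0.81 to 1.18. The difference of 0.18 was 0.61 without empty vector replicate 2 and -0.03 when replicate 3 was left out. MX2 had 1.75, 0.570, 0.728 and 1.53 TPM against 0.331, 1.02, 0.425 and 0.567 TPM and was not tested. The MX2 mean was lower with Siglec-XII (1.14 TPM with the empty vector and 0.585 TPM with Siglec-XII), and its groups overlapped. MX1 overlaps TMPRSS2 (29.7 TPM) on the opposite strand.

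Among the enzymes that sense, edit or degrade RNA, 2 of the 5 tested were higher at an unadjusted p of 0.05 or less, against 13.9% of all entries tested. ADAR, which edits adenosines in double-stranded RNA, had 48.4, 53.8, 53.1 and 53.2 TPM with the empty vector and 63.6, 59.4, 63.6 and 63.8 TPM with Siglec-XII. The groups did not overlap, and with a log2 difference of 0.26 and a standard error of 0.05 it came nearest to the threshold after the IFIT genes (limma adjusted p = 0.0719). HELZ2, a helicase that serves as a nuclear receptor coactivator, had 3.80, 3.31, 5.29 and 3.51 TPM against 4.71, 6.40, 7.34 and 6.15 TPM. Empty vector replicate 3 overlapped the Siglec-XII samples, and the log2 difference was 0.52 with a standard error of 0.15 (limma adjusted p = 0.156).

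ZC3HAV1, a zinc finger protein that targets CpG-rich viral RNA, had 15.8 to 18.7 TPM and 18.0 to 21.2 TPM (log2 difference 0.17, limma adjusted p = 0.306). EIF2AK2, the kinase PKR that halts translation on double-stranded RNA, had 34.3 to 43.6 TPM and 38.9 to 46.9 TPM (log2 difference 0.09, limma adjusted p = 0.628), and its difference ran from 0.03 without empty vector replicate 3 to 0.14 without empty vector replicate 2. The helicase DDX60 had 0.109, 0.145, 0.174 and 0.161 TPM with the empty vector and 0.380, 0.595, 0.240 and 0.579 TPM with Siglec-XII, without overlap and below the filter. Its neighbor DDX60L differed by -0.32 (limma adjusted p = 0.364), or -0.21 without Siglec-XII replicate 2, with 3.47 to 4.93 TPM and 2.25 to 4.10 TPM. DDX60L overlaps PALLD (128 TPM) on the opposite strand. The exonuclease ISG20 ranged from 0.519 to 3.19 TPM with the empty vector and from 0.677 to 1.35 TPM with Siglec-XII.

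RSAD2 (viperin) and CMPK2 are divergent neighbors on chromosome 2 that make and supply an antiviral nucleotide. Both were far below the filter and neither pair of groups overlapped. CMPK2 had 0, 0.0477, 0.146 and 0 TPM with the empty vector and 0.248, 0.246, 0.292 and 0.4396 TPM with Siglec-XII. RSAD2 had 0.0444, 0.0160, 0.0170 and 0.0300 TPM against 0.0973, 0.356, 0.0693 and 0.0512 TPM. These levels are at or under 0.5 TPM, where the number of reads behind a value is not known.

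The membrane-bound and secreted proteins held the most abundant members, with small differences. IFITM3, which blocks the fusion of virus with endosomes, had 1025, 999, 1009 and 992 TPM with the empty vector and 1088, 1105, 972 and 1157 TPM with Siglec-XII. Siglec-XII replicate 3 was the lowest of the 8 samples, and the log2 difference was 0.10 (limma adjusted p = 0.392), or 0.07 without Siglec-XII replicate 4. IFITM2 had 158 to 189 TPM and 170 to 183 TPM, a log2 difference of 0.06 (limma adjusted p = 0.683) that was 0.11 without empty vector replicate 1 and 0.03 when replicate 2 or 4 was left out. IFITM1, the member of the family found mainly at the cell surface, had 14.9, 11.3, 13.2 and 14.8 TPM against 13.6, 18.6, 17.4 and 30.8 TPM. Its difference of 0.48, with a standard error of 0.21 (limma adjusted p = 0.289), was 0.27 without Siglec-XII replicate 4. The 3 IFITM genes are near-identical in parts, so the split of reads between them is uncertain.

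BST2 (tetherin), which holds budding virus at the membrane, had 92.0, 95.9, 94.1 and 101 TPM with the empty vector and 103, 102, 102 and 110 TPM with Siglec-XII. The groups just failed to touch, and the log2 difference was 0.12 (limma adjusted p = 0.238). PLSCR1, a phospholipid scramblase, had 27.2 to 31.7 TPM and 28.6 to 34.0 TPM, and the secreted LGALS3BP had 19.4 to 24.7 TPM and 20.5 to 28.2 TPM. RTP4, a chaperone of membrane receptors, was listed at 0 in 7 samples and at 0.0357 TPM in Siglec-XII replicate 2.

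Of the small IFI proteins, IFI6, a mitochondrial and endoplasmic reticulum protein, was the second most abundant member and was nearly equal in both groups. It had 200, 179, 209 and 208 TPM with the empty vector and 188, 202, 194 and 200 TPM with Siglec-XII, and the interval of its log2 difference ran from -0.14 to 0.11. IFI35, a partner of the transcription factor BATF, had 2.70 to 3.66 TPM and 3.26 to 5.45 TPM (log2 difference 0.29, limma adjusted p = 0.373), and its difference was 0.17 without Siglec-XII replicate 4. IFI44 was listed at 0 in all 4 empty vector samples and at 0.127, 0.165, 0.119 and 0.444 TPM with Siglec-XII. Its neighbor IFI44L was under 0.1 TPM throughout, with overlapping groups. IFI27 had 0.566, 0.633, 0.348 and 0.154 TPM against 0.295, 0.879, 0.251 and 0.526 TPM. IFI27, like IRF9, stood on 2 entries with equal values in every sample, so each entry may hold a share of the gene's reads.

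The ADP-ribosylation genes PARP9, DTX3L and PARP14 lie together on chromosome 3, and PARP9 and DTX3L form a ubiquitin ligase. PARP14 had 6.76, 5.84, 6.58 and 5.16 TPM with the empty vector and 7.71, 7.13, 8.35 and 8.31 TPM with Siglec-XII, without overlap (log2 difference 0.33, limma adjusted p = 0.165). DTX3L had 8.34 to 12.3 TPM and 10.8 to 12.8 TPM, and PARP9 had 4.398 to 5.17 TPM and 4.85 to 5.44 TPM. Their log2 differences were 0.21 and 0.14 (limma adjusted p = 0.399 and 0.471), and that of DTX3L was 0.12 without empty vector replicate 3.

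Of the growth and death regulators, EPSTI1 was the most abundant, with 54.7 to 61.0 TPM with the empty vector and 54.9 to 60.8 TPM with Siglec-XII. The interval of its log2 difference ran from -0.13 to 0.11. SAMD9, a cytosolic restriction factor, had 0.0676, 0.155, 0.164 and 0.122 TPM against 0.221, 0.195, 0.308 and 0.208 TPM, without overlap and below the filter. SAMD9L beside it was under 0.05 TPM in every sample. XAF1, which opposes the apoptosis inhibitor XIAP, had 0.455 to 0.485 TPM with the empty vector and 0.370 to 0.726 TPM with Siglec-XII, so the Siglec-XII samples lay on both sides of the others.

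TRIM25, the ligase that modifies the RNA sensor RIG-I, was the most abundant of the nuclear body and TRIM proteins. It had 28.5, 27.1, 27.2 and 26.9 TPM with the empty vector and 35.3, 30.5, 32.1 and 35.2 TPM with Siglec-XII. The groups did not overlap, and the log2 difference was 0.27 with a standard error of 0.06 (limma adjusted p = 0.101). TRIM25 overlaps DGKE (10.6 TPM) on the opposite strand. SP110 and SP100, nuclear body proteins that lie near each other on chromosome 2, had log2 differences of 0.22 and 0.20 (limma adjusted p = 0.438 and 0.508). That of SP100 was 0.11 without empty vector replicate 3 and 0.30 when replicate 2 was left out. SP110 had 5.42, 7.503, 5.20 and 5.40 TPM against 8.15, 7.10, 5.94 and 6.63 TPM. The DNA sensor IFI16 and the restriction factor TRIM22 were near 1 TPM in both groups with overlapping samples.

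Of the 4 transcription factors that carry the interferon signal, 0 passed the adjusted threshold. IRF9, the DNA-binding partner of STAT2, had 3.11, 2.50, 2.21 and 4.02 TPM with the empty vector and 5.35, 4.37, 4.13 and 4.96 TPM with Siglec-XII. The groups were separated by a narrow gap above empty vector replicate 4. The log2 difference of 0.54, with a standard error of 0.15, was the greatest among the tested members after the IFIT genes (limma adjusted p = 0.144). STAT2 had 25.1, 25.1, 26.6 and 28.2 TPM against 30.3, 30.3, 25.6 and 31.8 TPM, with Siglec-XII replicate 3 inside the other group (log2 difference 0.16, limma adjusted p = 0.335). IRF1, which responds to interferon gamma, had 22.2 to 28.8 TPM and 26.2 to 29.0 TPM (log2 difference 0.16, limma adjusted p = 0.366). IRF7, which drives interferon alpha genes, had 13.7 to 17.4 TPM and 16.2 to 19.2 TPM (log2 difference 0.20, limma adjusted p = 0.311). A second IRF7 entry had 0.352 to 0.552 TPM and 0.752 to 1.12 TPM.

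**Figure D4:**
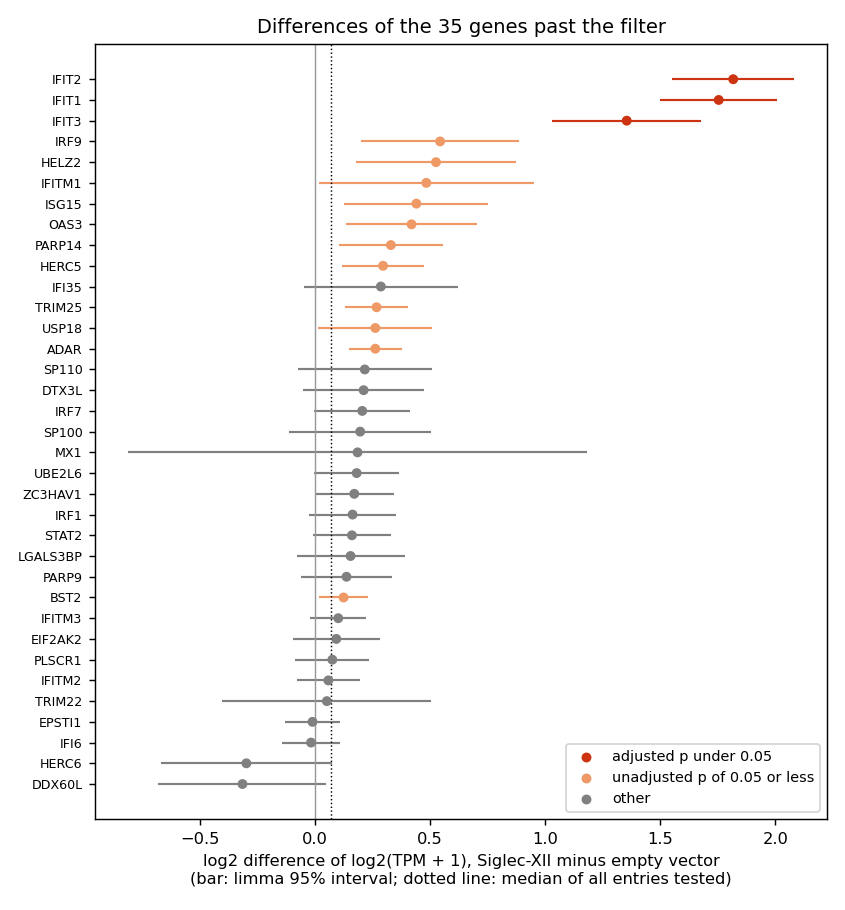
Log2 difference of each of the 35 tested genes, Siglec-XII minus empty vector, with the 95% interval from limma, 4 samples per group; red marks an adjusted p under 0.05 and orange an unadjusted p of 0.05 or less, and the dotted line is the median of all entries tested. IFIT1, IFIT2 and IFIT3 lie above 1.3, the next gene, IRF9, is at 0.54, and the 4 genes below 0 have intervals that include 0.

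The differences were read against the level of the genes, since noise and differences vary with it. Of the 16 members with a mean under 1 TPM, the groups did not overlap, higher, in 5 (IFI44, RSAD2, DDX60, SAMD9 and CMPK2), against 1.23% of entries at that level. Those entries needed only 1 sample above 0. Entries at 0 in samples of both groups cannot separate, which lowers this share. Of 17 members from 1 to under 10 TPM, the groups did not overlap in 7, against 5.21% of entries. These 7 include IFIT1, IFIT2 and IFIT3, which reach this level only through the Siglec-XII samples, since no empty vector sample reached 1 TPM. Of 15 members from 10 to under 100 TPM, the groups did not overlap in 3, against 11.4% of entries. Of the 4 members at 100 TPM or more, they did not overlap in 1, against 14.2%. Members listed at 0 in an empty vector sample, all of them at the lowest level, have no ratio of mean TPM. Over the other members its median was 1.54, 1.27, 1.14 and 1.06 from the lowest level to the highest. The ratio was not computed over all entries. In the same order the median log2 difference was 0.14, 0.26, 0.18 and 0.08 over the members. Over all entries at these levels it was 0.002, 0.06, 0.07 and 0.04. The summed TPM of all 52 was 1931 to 1971 with the empty vector and 2004 to 2231 with Siglec-XII, and without IFITM3 it was 932 to 954 and 1010 to 1074.

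**Figure D5:**
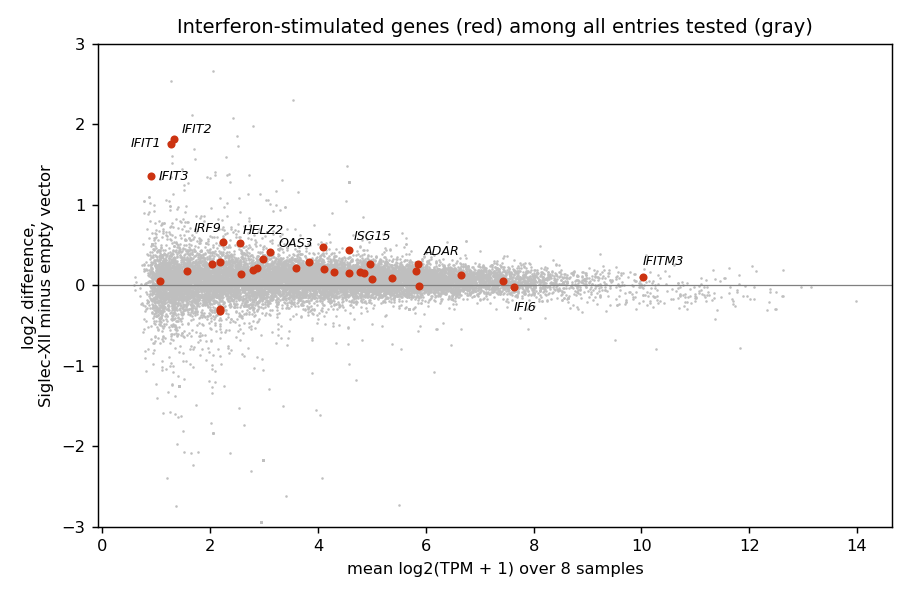
Log2 difference (Siglec-XII minus empty vector) against mean log2(TPM + 1) over the 8 samples, for all entries tested (gray, SIGLEC12 left out) and the 35 tested members (red). IFIT1, IFIT2 and IFIT3 lie at low level and high difference, the other members lie between -0.32 and 0.54, and 7 entries fall outside the drawn range.

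Many members are neighbors, so they are not independent of each other in position. In 11 groups, 27 members lay within 200000 bases of another member in GRCh37. In direction, neighbors agreed in some groups and differed in others. All members were above 0 in the groups that hold IFIT1, IFITM1, OAS1, CMPK2, PARP9 and SP100. Taken singly, 58.6% of all entries above 0 in any sample had a difference above 0. How often neighboring entries in general agree was not counted. The only adjusted calls, IFIT1, IFIT2 and IFIT3, lie in the same group. On the log2 scale HERC5 and HERC6 were at 0.29 and -0.30, DDX60 and DDX60L at 0.33 and -0.32, and IFI44 and IFI44L at 0.27 and 0.00. MX1 and MX2 were at 0.18 and -0.41, and SAMD9 and SAMD9L at 0.13 and -0.01. No test of these differences between neighbors was made.

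Genes that make, receive and relay the interferon signal were read in the same fit. Of 22 interferon genes, 1 reached the filter, IFNL4, with a log2 difference of 0.06 (limma adjusted p = 0.890). IFNB1, which encodes interferon beta, was listed at 0 in all 4 empty vector samples and at 0.0951, 0, 0.155 and 0.420 TPM with Siglec-XII. IFNL1, a type III interferon, had 0.361, 0.238, 0.0838 and 0.740 TPM with the empty vector and 1.05, 0.932, 0.857 and 0.927 TPM with Siglec-XII. The IFNL1 groups did not overlap, but the levels are near or under 1 TPM and the gene was below the filter. In the limma fit with no filter its unadjusted p was 0.0101 and its adjusted p 0.3625. IFNL1 was the only 1 of the 22 higher at an unadjusted p of 0.05 or less in that fit, against 6.99% of entries. The groups overlapped for the other type III genes, with mean TPM of 0.729 and 0.605 for IFNL2, lower with Siglec-XII, and 0.639 and 0.835 for IFNL3. In mean difference 6 of the 22 interferon genes were above 0, with IFNA5 at only 0.0001, and 2, IFNL2 and IFNW1, were below. The rest were listed at 0 in every sample. Of all entries above 0 in any sample, 58.6% had a difference above 0.

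Of 12 receptor and signalling genes, 11 were tested and 0 passed the adjusted threshold, with a median log2 difference of 0.09. SOCS1, an inhibitor of JAK kinases, had 12.2 to 15.7 TPM with the empty vector and 15.2 to 18.7 TPM with Siglec-XII (log2 difference 0.24, limma adjusted p = 0.285).

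Of 11 nucleic acid sensing genes, 7 were tested, 0 passed the adjusted threshold and 2 were higher at an unadjusted p of 0.05 or less, against 13.9% of all entries tested. IFIH1, which encodes the RNA sensor MDA5 and is itself induced by interferon, had 1.40, 1.42, 1.33 and 1.30 TPM with the empty vector and 2.07, 2.37, 2.56 and 3.28 TPM with Siglec-XII. Its groups did not overlap, and the log2 difference was 0.58 (limma adjusted p = 0.0978). MAVS, the adaptor of RIG-I and MDA5, differed by 0.14 (limma adjusted p = 0.279). Of 12 class I presentation genes, which interferons also induce, 11 were tested, and the count at the unadjusted threshold was 0 in either direction, with a median log2 difference of 0.09.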

How the data were processed

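RNA-Seq libraries of 8 samples were made, per the labels, with a stranded total RNA kit and paired reads of 100 bases; the methods name a stranded mRNA kit. The authors quantified the reads with kallisto (version 0.45.0 per the labels) and deposited 1 table of log2(TPM + 1) per entry, with no sample pooled. Taken back from the log scale, each column sums to 1000000 TPM, so read counts and depth are not known and no counting intervals are given. The methods name Hg19; coordinates of genes are from GENCODE v44lift37 on GRCh37, in which 50 of the 52 gene IDs were found, and promoters are from RefSeq on GRCh38.p14.

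The members and the gene lists were chosen with earlier results of these data known. Samples were grouped by title. Entries at 1 TPM or more in at least 4 samples were fitted with limma 3.58.1 in R 4.3.3 (lmFit, eBayes with a trend) and p-values were adjusted by Benjamini-Hochberg over all 15590 entries. The study names a count tool, but the table holds no counts, so this log-scale test was used. Any member, list gene and SIGLEC12 could be named; sample values are given for called members and for those of each role with the highest level or greatest difference, and sequences for called members and a relative. Beyond that rule, values of further members were given after they were seen. A gene of the pathway lists is not reported here. SIGLEC12 was tested by exact permutation in scipy 1.17.1. The fit was tested on simulated data. Alternatives were other pseudocounts, filters and scalings, array weights, no trend, a replicate block, leaving out each sample and, added after the data were seen, protein-coding entries alone. Intervals are limma's 95% intervals.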

Additional observations from a re-analysis of the deposited data

Results flagged for a closer look

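Among the 70 sets of 4 samples examined (each tested gene in each group), 4 held a sample far from the other 3, where chance gives about 1 in 20. For ADAR, empty vector replicate 1 was at 48.4 TPM while the others were at 53.1 to 53.8 TPM, and Siglec-XII replicate 2 was at 59.4 TPM while the others were at 63.6 to 63.8 TPM. For USP18, empty vector replicate 1 was at 2.25 TPM, below the others at 2.85 to 2.95 TPM. For SP110, empty vector replicate 2 was at 7.5 TPM, above the others at 5.20 to 5.42 TPM.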

How the results depend on the processing

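IFIT1, IFIT2 and IFIT3 were higher with an adjusted p under 0.05 in the main setting and in the 18 alternatives in which they were tested, with a highest adjusted p of 0.00311, 0.00293 and 0.0194. With a filter on a mean of at least 5 TPM, which left 24 members and tested none of the 3, 0 members were called. No other tested member reached an adjusted p under 0.05 in any setting. The count of members lower at an unadjusted p of 0.05 or less, 0 in the main setting, was 1 with quantile normalization, 1 with equal upper quartiles, 1 without empty vector replicate 3 and 1 without Siglec-XII replicate 3. Leaving out each sample in turn gave 3 to 3 adjusted calls higher, 0 to 0 lower, 11 to 17 unadjusted higher and 0 to 1 lower, and a SIGLEC12 difference of 10.57 to 10.62. The members higher at the unadjusted threshold, 14 of 35 in the main setting, were 12 with quantile normalization and 11 with equal upper quartiles. They were 11 of 38 with mitochondrial and the 100 most abundant entries left out. The share of all entries at the unadjusted threshold was not counted under these scalings, with a sample left out or with the replicate block. The member counts of those settings therefore cannot be read against it. The listed pathway genes had 0 adjusted calls throughout. Over all entries the 101 adjusted calls became 56, 159, 49 and 59 without empty vector replicate 1, 2, 3 or 4 and 63, 58, 64 and 58 without Siglec-XII replicate 1, 2, 3 or 4. They became 51 with no filter, 54 without the trend and 58 over protein-coding entries alone, the last chosen after seeing the data. With equal upper quartiles the log2 difference was 0.06 for BST2, 0.10 for IRF1, 0.10 for STAT2, 0.12 for UBE2L6, 0.11 for ZC3HAV1, 0.08 for PARP9 and 0.04 for IFITM3. Each of these was more than 1.5 times smaller, and that of IFITM2 was -0.01. Scaling moved the median of all entries from 0.07 to 0.01 (quantile normalization). The replicate numbers did not pair the samples: same-numbered samples deviated together with correlations of 0.0400, 0.0282, -0.0742 and 0.0591. With the replicate block there were 69 calls over all entries, and 3 members higher and 0 lower at the adjusted threshold, 15 higher and 0 lower at the unadjusted one. Entries near or under 1 TPM rest on few reads of unknown number, which limits the 17 untested members most.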
